A study of Homo sapiens with 6 samples.

Results

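The tight junction genes described here are 9 of the 20802 human genes measured. Of these 9, CLDN1, CLDN3, CLDN4 and CLDN7 are claudins, and OCLN (occludin) and MARVELD2 (tricellulin) are MARVEL proteins. F11R (JAM-A) is a junctional adhesion molecule, and TJP1 (ZO-1) and CGN (cingulin) are cytoplasmic plaque proteins. The 9 genes were chosen by their symbols, with earlier results of these data known. They were read in 6 libraries from MCF10A, an immortalised but non-tumorigenic line of human breast epithelium, by Ion AmpliSeq Transcriptome sequencing, which amplifies 1 short stretch of each gene's cDNA and counts its reads. All 6 libraries carry the MCF10A label, with 2 libraries each of the parental line (WT), of a line stably transfected with a plasmid for enhanced green fluorescent protein (eGFP), and of a line stably transfected with KCNJ3 and eGFP on 1 bicistronic transcript (GIRK1). KCNJ3 encodes GIRK1, a subunit of G-protein-activated inwardly rectifying potassium channels. Both transfected lines were selected with G418 and sorted on eGFP fluorescence, so eGFP and selection are shared by GIRK1 and eGFP cells and absent from WT cells. Cells were grown below full confluence and were taken up with trypsin. The series text speaks of separate lines and the methods of replicates, so it is not known whether the replicates are separate cultures, and p-values measure only the spread between these libraries, which may be technical.

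Tight junctions form the most apical seal between epithelial cells. Claudins span the membrane and set which ions pass between cells, occludin and tricellulin are membrane proteins of bicellular and tricellular contacts, and F11R is an immunoglobulin-type adhesion protein. TJP1 and cingulin lie on the cytoplasmic side, where TJP1 clusters claudins and links them to actin. In the mammary gland, luminal cells that line the lumen carry these junctions, whereas basal cells face the basement membrane. In bulk RNA, fewer cells of a type and less RNA per cell cannot be told apart.

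Library totals ran from 2506120 reads (WT replicate 1) to 16040556 reads (WT replicate 2), and 3 reads, the smallest count treated as a level, corresponded to 0.187 to 1.20 RPM (each count scaled to the total of its library). KCNJ3 had 2408 and 3677 reads in the GIRK1 libraries and 0 in both eGFP libraries and WT replicate 2. The library labelled WT replicate 1 had 48 reads of KCNJ3, and its markers went against a basal MCF10A identity. The summed level of 12 basal markers was 419 RPM there and 9686 to 18120 RPM in the other 5 libraries, with KRT14 and KRT17 at 0 reads in it. The summed level of 14 luminal markers was 17518 RPM there and 554 to 1070 RPM in the others, which held 0 reads of KRT19, ESR1, PGR, TFF1 and TFF3. The amplicon of TP63, a basal marker, had 0 reads in all 6 libraries. Results are therefore given with and without the library labelled WT replicate 1. The deposited data of the GIRK1 libraries carry a tag in their names that differs from the tag of the other 4 libraries. What the tag means is unknown, and should it mark a run, its effect and that of GIRK1 cannot be told apart.

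CLDN1 was the claudin that set the library labelled WT replicate 1 apart most sharply. CLDN1 had 0 reads there, 556 RPM (8925 reads) in WT replicate 2, 175 RPM (898 reads) and 560 RPM (5731 reads) in the eGFP libraries, and 377 RPM (4192 reads) and 448 RPM (4633 reads) in the GIRK1 libraries. The 2 GIRK1 libraries lay between the 2 eGFP libraries, and eGFP replicate 2 and WT replicate 2 had overlapping counting intervals. The exact (Clopper-Pearson) 95% interval was 546 to 575 RPM for eGFP replicate 2 and 545 to 568 RPM for WT replicate 2. Such intervals cover counting error only, because PCR reads are not independent molecules. The mean was 413 ± 49.8 RPM (SD, n = 2) in GIRK1 and 431 ± 221 RPM (SD, n = 3) in eGFP together with WT replicate 2.

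CLDN3 and CLDN4, claudins of neighbouring genes on chromosome 7, showed the opposite distribution. CLDN3 had 20 reads (7.98 RPM) in the library labelled WT replicate 1 and 0 reads in the other 5. CLDN4 had 208 RPM (522 reads) there, 1.25 RPM (20 reads) in WT replicate 2, 0.975 and 1.37 RPM (5 and 14 reads) in eGFP, and 1.80 and 1.35 RPM (20 and 14 reads) in GIRK1. The counting intervals of the last 5 CLDN4 values all overlapped. CLDN3 was thus not detectable at this depth in WT replicate 2, eGFP or GIRK1, and CLDN4 was close to the floor. CLDN7, by contrast, was read in every library. CLDN7 had 364 RPM in the library labelled WT replicate 1, 181 RPM in WT replicate 2, 36.9 and 112 RPM in eGFP, and 84.4 and 67.9 RPM in GIRK1. The order of the 6 CLDN7 values was the 2 WT libraries, eGFP replicate 2, the 2 GIRK1 libraries and eGFP replicate 1, with 189 to 2908 reads behind each and no overlap of neighbouring counting intervals.

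The 2 MARVEL genes, neighbours on chromosome 5, were highest in the library labelled WT replicate 1 and lowest in eGFP replicate 1, as were CLDN4, CLDN7 and TJP1. OCLN had 70.6 RPM (177 reads) in the library labelled WT replicate 1 and 15.6 RPM (250 reads) in WT replicate 2. In eGFP it had 3.71 and 9.67 RPM (19 and 99 reads), and in GIRK1 13.6 and 26.2 RPM (151 and 271 reads). Both GIRK1 libraries were above both eGFP libraries for OCLN, but GIRK1 replicate 1 was not above WT replicate 2, and their counting intervals of 11.5 to 15.9 and 13.7 to 17.6 RPM overlapped. MARVELD2 had 79.0 and 33.9 RPM in WT, 17.9 and 29.9 RPM in eGFP, and 28.5 and 40.6 RPM in GIRK1. Here GIRK1 replicate 1 lay below eGFP replicate 2, so the groups overlapped. The OCLN amplicon lies on transcript NM_002538, and the annotation holds an unprocessed pseudogene of OCLN elsewhere on chromosome 5. How reads from near-identical copies were assigned is not given in the sources used here, so OCLN values are less certain in this respect.

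F11R was the steadiest of the 9 genes across the 6 libraries. Its 6 values were 265 and 242 RPM in WT, 246 and 255 RPM in eGFP, and 273 and 231 RPM in GIRK1, from 663 to 3889 reads. The means were 252 ± 29.7 RPM (SD, n = 2) in GIRK1 and 250 ± 6.76 RPM (SD, n = 2) in eGFP, and both GIRK1 values lay outside the range of the eGFP pair, 1 on each side. The plaque genes were read at low counts. TJP1 had 29.1 RPM (73 reads) in the library labelled WT replicate 1, 3.62 RPM (58 reads) in WT replicate 2, 2.54 and 6.16 RPM (13 and 63 reads) in eGFP, and 4.59 and 4.64 RPM (51 and 48 reads) in GIRK1. The library labelled WT replicate 1 stood alone for TJP1, and the 2 GIRK1 values lay within the eGFP range. CGN had 19.6 RPM (49 reads) in that library and 0 to 2 reads in each of the other 5, which is below the floor of 3 reads. Since each gene was read through its own amplicon of 99 to 108 bases, levels were compared between libraries and not between genes.

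**Figure D1:**
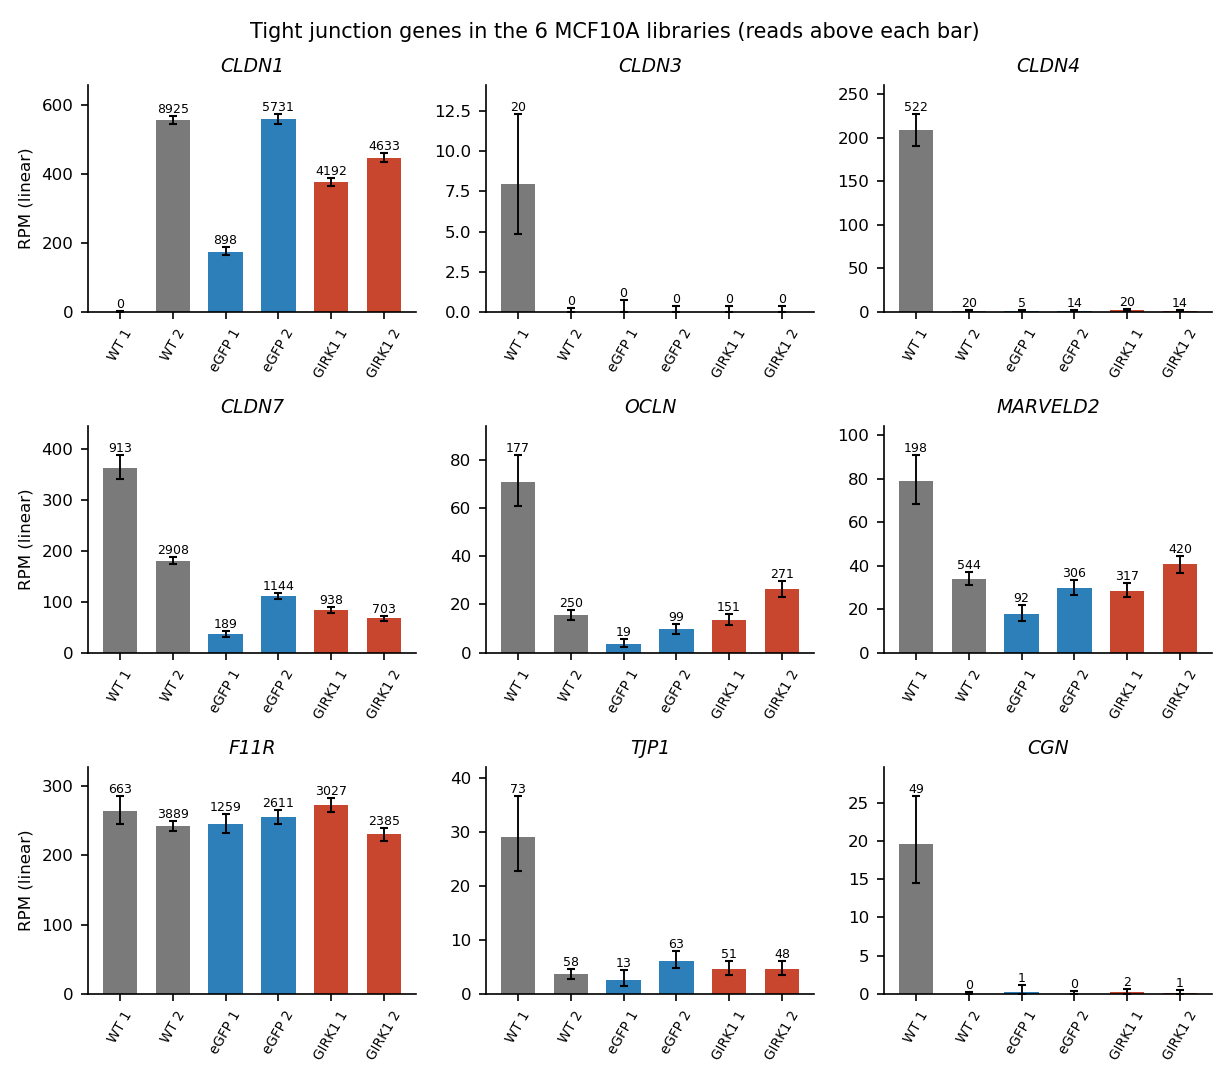
Level of each of the 9 tight junction genes in every library, in RPM on a linear axis from 0 that differs between panels, coloured by group (grey WT, blue eGFP, red GIRK1). Error bars are exact 95% counting intervals and the number above each bar is the read count. The library labelled WT replicate 1 holds the highest bar for 7 of the 9 genes and no CLDN1 read.

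Promoter sequence is shown for the genes with the widest gap between the library labelled WT replicate 1 and the others (CLDN1, CLDN4 and CGN). It is also shown for the CLDN7 window that held the most motif matches. Each run is the 250 bases before an annotated transcription start, 5′ to 3′ on the strand of the gene, from RefSeq on GRCh38.p14. A pair of short motifs was searched on both strands. The first is the E-box CACCTG (reverse complement CAGGTG), the motif bound by SNAI2 and other E-box factors, and the second is the grainyhead half-site CCGGTT (reverse complement AACCGG). Capitals mark a match to either motif.
CLDN1 (chr3:190322447-190322696, minus strand): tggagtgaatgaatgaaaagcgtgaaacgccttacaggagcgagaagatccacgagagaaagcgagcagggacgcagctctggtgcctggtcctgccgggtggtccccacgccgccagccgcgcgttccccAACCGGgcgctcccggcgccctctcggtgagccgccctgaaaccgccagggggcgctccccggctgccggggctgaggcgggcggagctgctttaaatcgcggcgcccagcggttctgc
CLDN4 (chr7:73830746-73830995, plus strand): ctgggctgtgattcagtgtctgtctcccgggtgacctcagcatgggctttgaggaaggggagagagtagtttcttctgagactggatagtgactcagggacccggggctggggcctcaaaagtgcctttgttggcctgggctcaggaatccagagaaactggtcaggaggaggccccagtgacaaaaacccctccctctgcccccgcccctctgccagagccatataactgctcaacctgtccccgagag
CLDN7 (chr17:7262479-7262728, minus strand): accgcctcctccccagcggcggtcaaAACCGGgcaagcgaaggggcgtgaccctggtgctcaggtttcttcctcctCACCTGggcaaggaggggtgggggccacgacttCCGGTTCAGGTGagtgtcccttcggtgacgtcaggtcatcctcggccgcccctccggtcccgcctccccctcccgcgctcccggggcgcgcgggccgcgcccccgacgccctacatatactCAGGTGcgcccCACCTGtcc
CGN (chr1:151511137-151511386, plus strand): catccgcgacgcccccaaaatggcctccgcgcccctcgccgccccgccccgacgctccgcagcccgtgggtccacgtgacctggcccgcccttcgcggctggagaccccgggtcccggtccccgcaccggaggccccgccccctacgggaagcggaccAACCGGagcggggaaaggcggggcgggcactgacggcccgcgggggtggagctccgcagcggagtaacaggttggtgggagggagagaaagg
CLDN1 and CGN held 1 grainyhead half-site each, CLDN4 held neither motif, and this CLDN7 window held 4 E-boxes and 2 half-sites, of which 1 E-box directly follows 1 half-site without overlap. Another CLDN7 window, at chr17:7263214-7263463, held neither motif. Of the 13 windows found for 8 of the 9 genes, 4 held an E-box and 4 a half-site. Among 35116 windows of the same length, 17.5% held the E-box and 5.99% the half-site. A match describes letters in this window and was not tested as a binding site. F11R had no window in the table.

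The comparison of the study asks what changes when GIRK1 is overexpressed. Between GIRK1 and eGFP, none of the tight junction genes passed the adjusted threshold, and OCLN came nearest. The fit tested 7 of the 9 genes, since CLDN3 and CGN had too few reads. It called 0 of these 7, against 172 of 11279 genes (1.52%) at a Benjamini-Hochberg adjusted p below 0.05 in edgeR's quasi-likelihood test. At an unadjusted p below 0.05 it called 1 of 7 (OCLN), against 2163 genes or 19.2%, and the DESeq2 test also called 0 of 7 (6.15% of all genes). Without the filter on low counts, edgeR called OCLN (adjusted p = 0.0300) among 8 of the genes tested, against 5.92% of 14893 genes. The median log2 difference was 0.16 over the 7 genes and 0.01 over all genes tested. OCLN had a log2 difference of 1.50 (SE 0.49, 95% interval 0.32 to 2.68, 2 libraries against 2), with an adjusted p of 0.178 in edgeR's quasi-likelihood test. Its interval excluded 0, but the difference did not pass the threshold once adjusted over all genes tested. Without GIRK1 replicate 2, the higher of the 2 GIRK1 values, it was 0.95 (adjusted p = 0.766, edgeR), and over single libraries left out it ran from 0.95 to 2.32. MARVELD2 had a log2 difference of 0.49 (95% interval -0.25 to 1.24) and CLDN4 one of 0.36 (95% interval -0.90 to 1.62). For CLDN1, CLDN7 and TJP1 the differences were 0.16, 0.01 and 0.02, with intervals from -0.96 to 1.27, -1.04 to 1.07 and -1.10 to 1.14. These intervals leave room for differences of about 1 log2 unit in either direction. F11R had the narrowest interval, from -0.53 to 0.46 around a difference of -0.03.

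With WT replicate 2 added to the controls, the same 7 genes were tested and again 0 were called, against 1.21% of 11389 genes. At an unadjusted p below 0.05 edgeR called 0 of the 7 and 2134 genes (18.7%) in all, and DESeq2 called 0 of the 7 (7.08% of all genes). OCLN then had a log2 difference of 0.99 (SE 0.51, 95% interval -0.21 to 2.19, 2 libraries against 3; adjusted p = 0.345, edgeR), which was 0.44 without GIRK1 replicate 2 and 0.66 without eGFP replicate 1. CLDN7 had a log2 difference of -0.54 (SE 0.53, 95% interval -1.80 to 0.72; adjusted p = 0.626, edgeR). The other 5 genes lay between -0.06 (CLDN1) and 0.36 (CLDN4). In RPM, 0 of 7 genes had both GIRK1 libraries above or below all 3 controls, against 41.1% of the 11150 genes averaging 10 reads or more. The rule in the methods, taken here as a ratio of mean RPM of 2 or more with a coefficient of variation under 0.7 among the replicates of each group, called 1309 of 13200 genes (9.92%) between GIRK1 and eGFP, 4.75% higher in GIRK1. Among the tight junction genes it called OCLN, 2.97-fold higher in GIRK1, with coefficients of 0.631 in eGFP and 0.448 in GIRK1. CLDN1 and CLDN7 exceeded the coefficient in eGFP, at 0.740 and 0.713.

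Which eGFP library served as the control decided the direction for CLDN1, CLDN7 and TJP1. Without eGFP replicate 2, CLDN1 (log2 difference 1.13), CLDN7 (0.94) and OCLN (2.32) were called higher in GIRK1, with adjusted p of 0.00306, 0.0118 and 0.00743 in edgeR's quasi-likelihood test. In that fit 2933 of 11558 genes (25.4%) were called. TJP1 was at 0.76 there and at -0.40 without eGFP replicate 1, uncalled in both. Without eGFP replicate 1, CLDN1 (-0.43) and CLDN7 (-0.54) were on the other side of 0 and 0 of 7 genes were called, against 6.21% of 11560 genes, while OCLN was at 1.05 (adjusted p = 0.137, edgeR). When eGFP replicate 2 and WT replicate 2 served as the controls, CLDN7 was called 0.93 log2 units lower in GIRK1 (adjusted p = 0.0339, edgeR), among 984 of 11274 genes (8.73%). In the fits with 1 eGFP library, that library was assumed to vary like the GIRK1 pair. Over single libraries left out, the number of genes called in all ran from 89 to 2933 in the comparison with eGFP and from 19 to 984 with WT replicate 2 added.

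**Figure D2:**
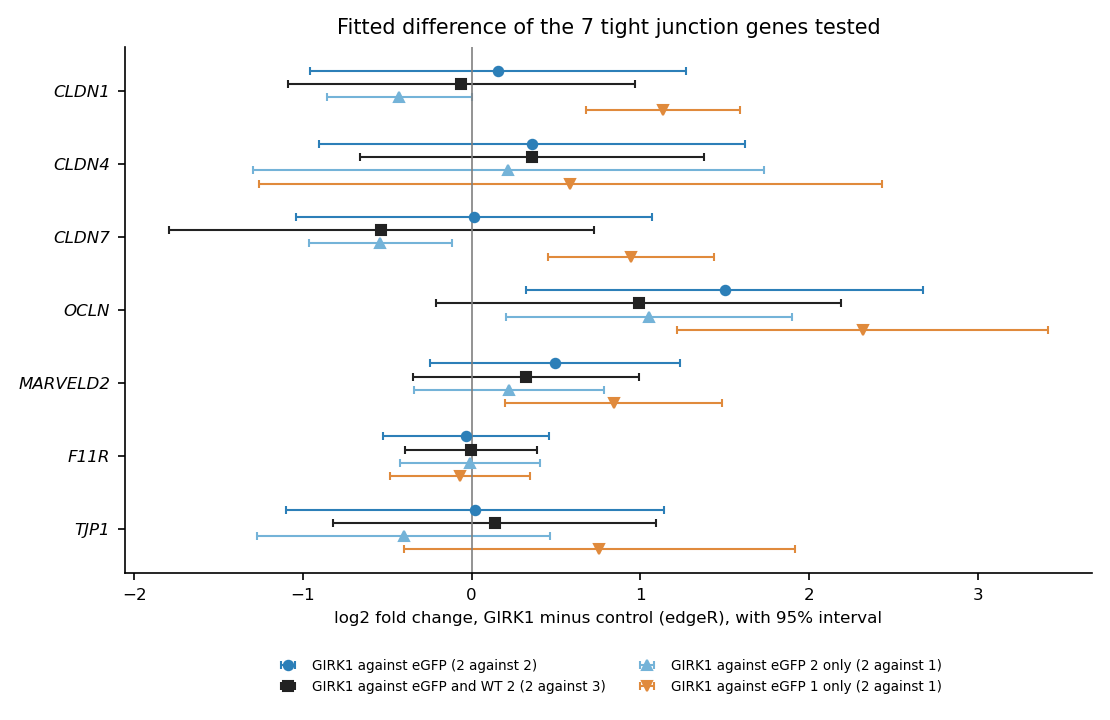
Log2 fold change of GIRK1 over its controls for the 7 tight junction genes tested, with 95% intervals from edgeR's quasi-likelihood test, against eGFP, against eGFP with WT replicate 2, and against each eGFP library alone. CLDN1, CLDN7 and TJP1 lie on opposite sides of 0 depending on the eGFP library used, F11R stays near 0, and the OCLN estimate lies above 0 in all 4 fits.

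The spread within the eGFP pair was itself a pattern of these genes. Of the 6 averaging 10 reads or more in the pair, 4 were at least 2-fold lower in eGFP replicate 1 than in eGFP replicate 2 and 0 were higher. Over all 10745 such genes, 14.4% were at least 2-fold apart, 8.89% lower and 5.53% higher in eGFP replicate 1. CLDN1 was 3.20-fold lower, CLDN7 3.03-fold, OCLN 2.61-fold and TJP1 2.43-fold. MARVELD2 was 1.67-fold lower, and F11R was 1.04-fold lower, within counting error. The ratio of eGFP replicate 1 to eGFP replicate 2 had a 95% counting interval of 0.291 to 0.336 for CLDN1 and of 0.208 to 0.756 for TJP1. The median gene was 0.12 log2 units lower in eGFP replicate 1, so the tight junction genes are to be read against that shift. The summed level of all 9 genes was 483 RPM in eGFP replicate 1 and 974 RPM in eGFP replicate 2. CLDN1 alone had 175 and 560 RPM of these sums, and so made up most of the gap. In the same order, basal markers summed to 18120 and 12079 RPM, of which KRT5 alone had 10660 and 5741 RPM. Of 11 basal markers, 0 were 2-fold apart, and their median log2 ratio was 0.56. Luminal markers summed to 554 and 905 RPM, of which XBP1 alone had 125 and 431 RPM. The median log2 ratio of 6 luminal markers was -0.07. SNAI2, a transcriptional repressor that binds E-boxes, had 165 and 86.3 RPM. The total of eGFP replicate 1 was 5126930 reads, against 10233974. The part of markers and depth in the difference was not tested. Between the GIRK1 replicates, 0 of the 7 genes so counted reached 2-fold (4.11% of 11167 genes did), although OCLN came close at 1.93-fold higher in replicate 2.

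The library labelled WT replicate 1 differed far more from WT replicate 2. With 1 library on each side there is no replicate check and no test, and the values describe these libraries. Of the 9 genes, 5 were at least 4-fold higher in the library labelled WT replicate 1 and 1 was at least 4-fold lower, against 20.2% of 11455 genes in both directions (10.6% higher and 9.64% lower). CLDN4 was 167-fold higher, with a 95% counting interval of 107 to 276. TJP1 was 8.06-fold higher (5.63 to 11.6) and OCLN 4.53-fold (3.72 to 5.52). CGN was at least 105-fold higher and CLDN3 at least 42.7-fold higher, both against 3 reads in WT replicate 2. CLDN1 went the other way and was at least 465-fold lower, against 3 reads in the library labelled WT replicate 1. TMM scaling shifts every ratio of this pair by -0.21 on the log2 scale, which put OCLN at 3.91-fold, under the limit, and left 5 of the 9 genes past it. CLDN7 was 2.01-fold higher (1.86 to 2.17), MARVELD2 2.33-fold higher (1.97 to 2.75) and F11R 1.09-fold higher (1.003 to 1.19). Against eGFP replicate 2 in place of WT replicate 2, the same 5 genes were at least 4-fold higher (10.5% of genes) and CLDN1 was at least 468-fold lower (10.1% of genes were 4-fold lower). The summed level of the 9 genes hardly differed, at 1043 RPM in the library labelled WT replicate 1 and 1035 RPM in WT replicate 2, with CLDN1 at 0 in the former and at 556 RPM in the latter.

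**Figure D3:**
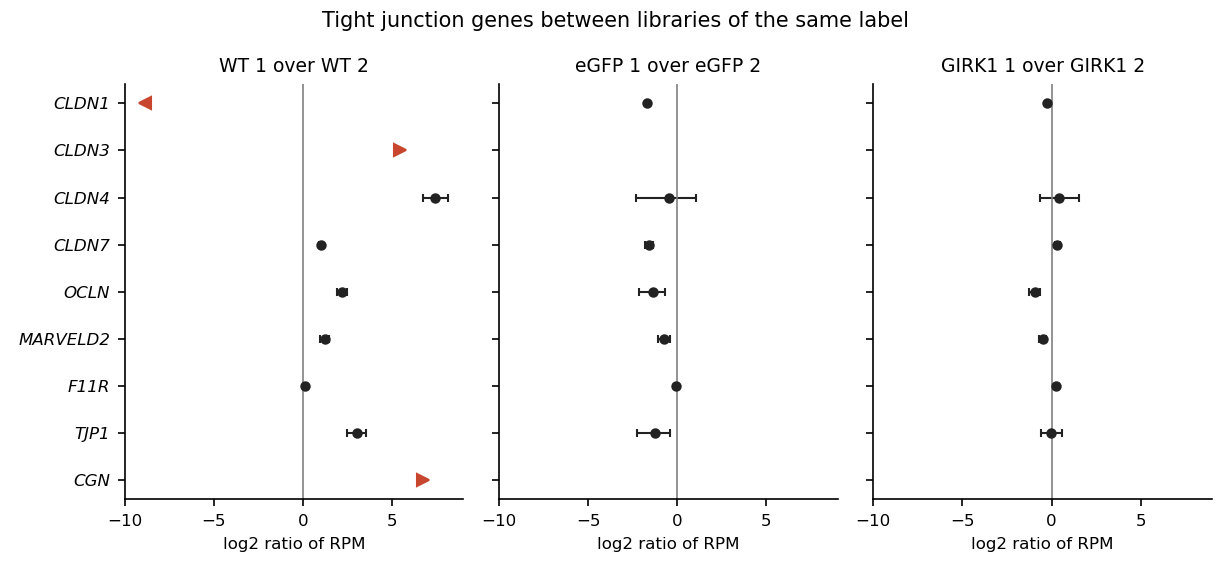
Log2 ratio of RPM between the 2 libraries of each label for the 9 tight junction genes, with 95% counting intervals as bars. Red arrowheads mark bounds against 3 reads where 1 library had 0 reads. Ratios are left out where both libraries had 3 reads or fewer. The WT pair spans from CLDN1 at -8.86 to CLDN4 at 7.38, and in the eGFP pair every point lies below 0.

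Regulators of epithelial junction genes also set the library labelled WT replicate 1 apart. Among 11 of 13 regulators with enough reads, 6 were at least 4-fold higher in the library labelled WT replicate 1 than in WT replicate 2. Another 3 were at least 4-fold lower. Over all 11455 genes so counted, 10.6% were at least 4-fold higher and 9.64% at least 4-fold lower. GRHL2, a grainyhead factor known to act at claudin genes, had 104 RPM in the library labelled WT replicate 1 and 0 reads in the other 5. ELF3, an epithelial ETS factor, had 150 RPM there and 0.270 to 0.780 RPM elsewhere. EHF went the other way, with 0 reads there and 0.580 to 5.61 RPM in the other 5 libraries. The floor of the library labelled WT replicate 1 was 1.20 RPM, above the EHF values of GIRK1 (1.17 and 0.580 RPM). For EHF the 2 therefore cannot be told apart. Against eGFP replicate 2 in place of WT replicate 2, EHF was not among the regulators at least 4-fold lower. KLF4 had 219 RPM in the library labelled WT replicate 1 against 25.9 to 54.2 RPM in the others. SNAI2 had 2.39 RPM in that library and 41.4 to 165 RPM in the others, and TWIST1 had 0 reads against 15.8 to 23.5 RPM. All 14 luminal markers were at least 4-fold higher in it (10.6% of all genes), and 9 of 11 basal markers were at least 4-fold lower (9.64% of all genes). Whether these factors or cell types have a part in the claudin values was not tested.

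**Figure D4:**
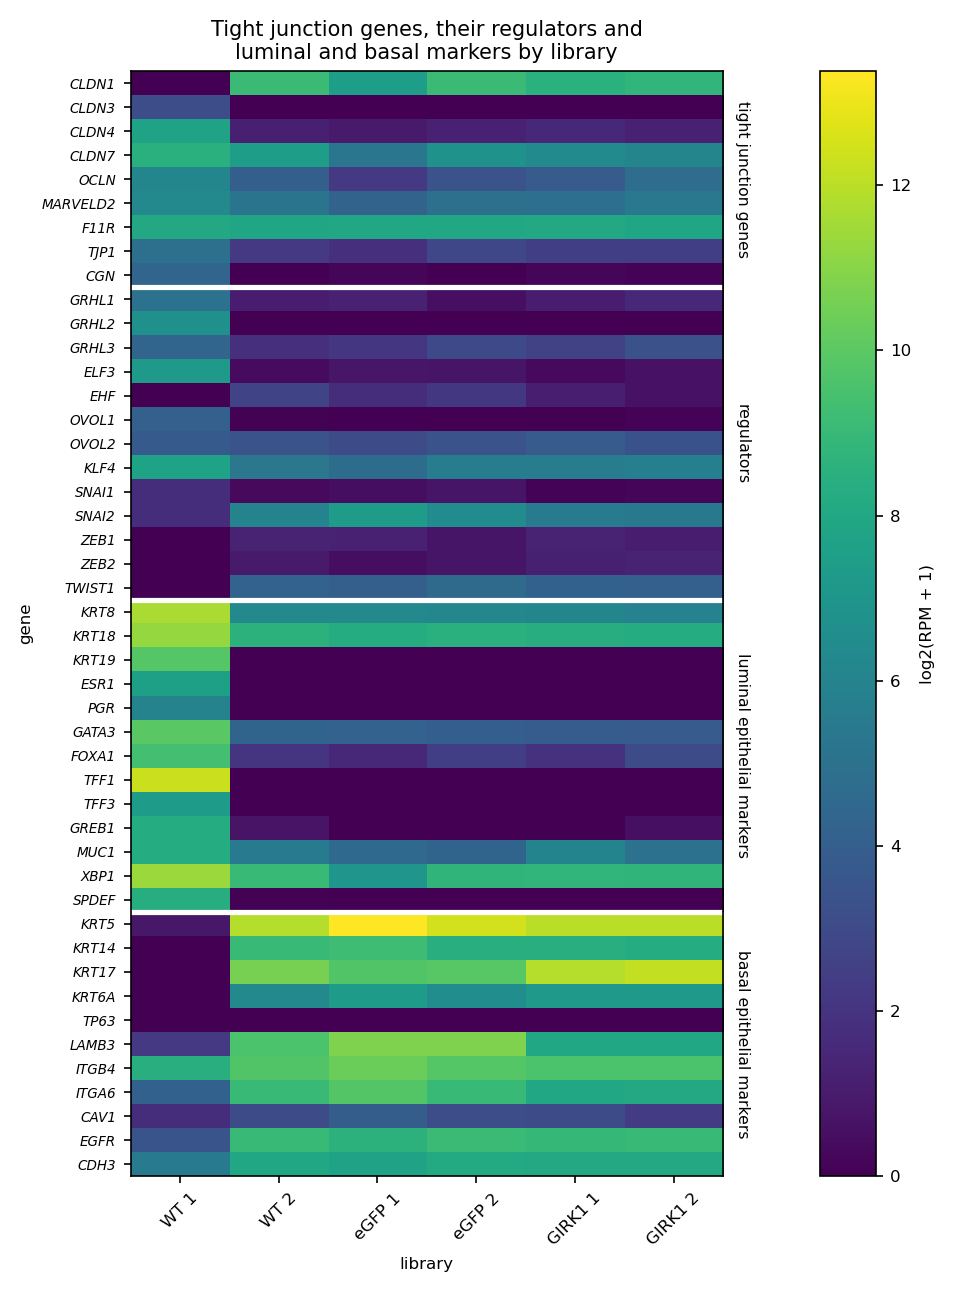
Level of the tight junction genes, 13 regulators, 13 luminal and 11 basal markers in each library, as log2(RPM + 1) by colour. The library labelled WT replicate 1 has GRHL2, ELF3, CLDN3, CLDN4, CGN and luminal markers such as KRT19, ESR1 and TFF1. These are at or near 0 in the other 5 libraries. Other luminal markers such as KRT18 and XBP1 are read in all 6, and CLDN1, EHF, KRT14 and KRT17 are at 0 in that library. Levels are comparable along a row, not between rows.

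The rest of the junction machinery was counted from 6 lists of 83 genes on the panel. Of these, 55 were tested between GIRK1 and eGFP and 0 passed the adjusted threshold, against 1.52% of all genes tested. At an unadjusted p below 0.05 there were 15 (27.3%), 9 higher and 6 lower, against 19.2% of all genes. With WT replicate 2 added, 0 of 55 passed, against 1.21% of 11389 genes. An unadjusted p below 0.05 was then reached by 15 (27.3%), against 18.7% of all genes. Only 4 of 17 other claudins could be tested. CLDN9 was highest in the library labelled WT replicate 1, at 137 reads (54.7 RPM). It had 1 and 2 reads in eGFP, 2 reads in WT replicate 2 and 12 and 17 reads (1.08 and 1.64 RPM) in GIRK1. Its adjusted p against eGFP was 0.138 in edgeR's quasi-likelihood test. With WT replicate 2 added it was 0.0799 by the same test, the smallest of the 55. The controls were under the floor of 3 reads, so no fold is given. CLDN12 was read at 45.8 to 58.5 RPM in the 5 libraries other than the one labelled WT replicate 1, which had 19.2 RPM. Among the other scaffolds, 6 of 10 tested had an unadjusted p below 0.05, with a median log2 difference of -0.36. MAGI3, a PDZ scaffold, had 6.83 and 8.99 RPM in eGFP, 7.98 RPM in WT replicate 2 and 3.24 and 3.48 RPM in GIRK1, so both GIRK1 libraries were below all 3 controls; 41.1% of all genes had both above or both below. MPP5 (PALS1), of the Crumbs complex, had 30.6 and 20.4 RPM in eGFP, 21.5 RPM in WT replicate 2 and 13.96 and 10.3 RPM in GIRK1, also without overlap. INADL (PATJ), its partner, went the other way, with 33.7 and 31.4 RPM in eGFP, 37.6 RPM in WT replicate 2 and 50.5 and 58.9 RPM in GIRK1. The adjusted p in edgeR's quasi-likelihood test against eGFP was 0.140 for MAGI3, 0.149 for MPP5 and 0.166 for INADL.

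Among 14 polarity genes tested, 3 had an unadjusted p below 0.05, and 3 of 14 signalling and traffic genes did, 21.4% of each list against 19.2% of all genes tested. PARD6B, a Par6 polarity protein, had 1.76 and 4.40 RPM in eGFP, 5.67 RPM in WT replicate 2 and 8.73 and 8.80 RPM in GIRK1, against 419 RPM in the library labelled WT replicate 1. EPCAM, an adhesion protein known to stabilise CLDN7, had 63.6 and 81.7 RPM in eGFP, 117 RPM in WT replicate 2 and 113 and 127 RPM in GIRK1. SNAI2 had the smallest adjusted p of the 55 against eGFP, 0.0932 in edgeR's quasi-likelihood test. Its log2 difference was -1.56 (SE 0.35), with 47.1 and 41.4 RPM in GIRK1. With WT replicate 2 (61.8 RPM) among the controls it was -1.28, with an adjusted p of 0.196 by the same test. Markers moved between GIRK1 and eGFP too. KRT17 (log2 difference 2.17, adjusted p = 0.0104) and DCN (3.37, 0.0371) rose, and LAMB3 (-2.81, 0.00380) and SPARC (-6.06, 0.0117) fell in GIRK1, by edgeR's quasi-likelihood test. Of 6 luminal markers tested, 0 passed, against 1.52% of all genes tested. Basal markers summed to 10660 and 11354 RPM in GIRK1, within the range of the controls, but this sum hides opposite changes. KRT17 had 3800 and 4513 RPM in GIRK1 and 853 to 1570 RPM in the 3 controls. Both GIRK1 libraries were below all 3 controls for 6 of 11 basal markers and above them for 1 (KRT17). Over all genes, 41.1% had both above or both below. Mesenchymal markers summed to 806 and 1034 RPM in GIRK1 against 1412 to 1971 RPM in the 3 controls. The part of these markers in the OCLN values was not tested.

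The genes with the profile most like each tight junction gene were found by the root mean square difference of centred log2(RPM + 1) over the 6 libraries, among 11546 genes, and largely follow the library labelled WT replicate 1. Nearest to CLDN1 were SLC43A3, PLS3 and NNMT, with differences of 0.54 to 0.57, and all 3 had 0 reads in that library. Nearest to CLDN4 were IGFBP4 (0.24), GATA3 (0.37) and LOXL1 (0.37), of which GATA3 is a transcription factor of luminal cells and had 982 RPM in that library and 13.1 to 19.2 RPM elsewhere. For CLDN7 they were TAF9B (0.16), RAB39B (0.25) and TET3 (0.29), for OCLN PCDHB13 (0.20), SLC16A14 (0.27) and ST20 (0.30), and for MARVELD2 SEC16A (0.07), DCP2 (0.09) and NCOA2 (0.11). TJP1 was nearest to GRTP1 (0.10), MPP7 (0.17), itself a membrane-associated scaffold, and RAD54B (0.17). F11R was nearest to C19orf53 (0.04), GLTPD1 (0.04) and the ribosomal protein gene RPL18 (0.06). The median difference to all genes ran from 0.44 for F11R to 3.28 for CLDN1, and a near profile over 6 libraries, of which 1 stands apart, is a description of those libraries.

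By position, the 9 genes lie on 6 chromosomes of GRCh38 in the GENCODE annotation. CLDN1 lies at chr3:190305701-190322475 (minus strand), CLDN7 at chr17:7259903-7263983 (minus strand) and TJP1 at chr15:29699367-29968865 (minus strand). CLDN3 at chr7:73768997-73770270 (minus strand) and CLDN4 at chr7:73799542-73832693 (plus strand) are neighbours, and both were read mainly or only in the library labelled WT replicate 1. MARVELD2 at chr5:69415065-69444330 and OCLN at chr5:69492292-69558104 lie on the same strand (plus), and both had their lowest value in eGFP replicate 1. CLDN4, CLDN7 and TJP1, on other chromosomes, also had their lowest value there, so this is not particular to the neighbouring genes. CGN at chr1:151510510-151538692 (plus strand) and F11R at chr1:160995211-161021348 (minus strand) share a chromosome but not a distribution, since CGN was at or under 2 reads in 5 libraries and F11R was read evenly in all 6.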

How the data were processed

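The authors used the Ion Torrent software to map the reads of 6 MCF10A libraries to a reference of AmpliSeq amplicons and to count them per transcript, and defined changed genes by a fold and a coefficient of variation. Software versions and the handling of multiple matches are not given in the sources used here. The deposited counts are whole-number total reads per amplicon, and the deposited RPM is each count scaled to the total of its library. The deposited coverage columns (covering reads in either direction) were used as an alternative count. Rows were joined by amplicon, and 10 spike-in rows without reads were left out.

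The test was that of edgeR 4.0.16 in R 4.3.3, with TMM normalization, filterByExpr, glmQLFit and glmQLFTest, and Benjamini-Hochberg adjustment over all genes tested at a threshold of 0.05. DESeq2 1.42.0 was an alternative, and the procedure was tested on simulated counts. Comparisons were GIRK1 against eGFP (4 libraries) and GIRK1 against eGFP with WT replicate 2 (5 libraries). Contrasts of 1 library with 1 library were ratios of RPM with exact binomial intervals and no test, over genes averaging 10 reads or more. A library at 0 reads was set to 3 reads for a bound. Groups and replicate numbers came from the labels. Samples with the same number did not all deviate together, so the numbers were not used as a block. Alternatives were normalizations, filters, covering reads, the replicate block, all 6 libraries in 1 fit, thresholds and leaving out each replicate.

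The tight junction genes, the lists and the tests were chosen with earlier results of these data known. Named genes were the 9 members, KCNJ3, genes of the lists with an adjusted p below 0.05 (at most 5 per list), markers beside a result, and the 3 nearest profiles for members averaging 10 reads or more. The other genes named from the lists were picked after their values were seen. Among them are CLDN9, CLDN12, MAGI3, MPP5, INADL, PARD6B, EPCAM, SNAI2, GRHL2, ELF3, EHF, KLF4 and TWIST1. Single marker genes of the lists that are not named are not reported here.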

Additional observations from a re-analysis of the deposited data

How the results depend on the processing

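The number of tight junction genes called stayed at 0 under other normalizations, covering reads, the stricter filter, DESeq2 and the fit of all 6 libraries, with 2 exceptions against eGFP: without a filter on low counts 1 of 8 genes was called (OCLN, adjusted p = 0.0300, edgeR), and with the replicate block 1 of 7 (OCLN, adjusted p = 0.0222, edgeR). Against eGFP, the genes called in all numbered 881 without a filter, 111 with at least 10 reads in every library, 694 by DESeq2, 590 with the replicate block and 0 in the fit of all 6 libraries (606 at an unadjusted p below 0.05), and leaving out 1 library gave 89 to 2933 genes and 0 to 3 members. With WT replicate 2 among the controls they numbered 374 without a filter, 806 by DESeq2 and 558 with the replicate block, and leaving out 1 library gave 19 to 984 genes and 0 to 1 members. The block pairs libraries by a shared number only: the replicate differences correlated at 0.142 (WT and eGFP), 0.0417 (WT and GIRK1) and 0.194 (eGFP and GIRK1) over 9212 genes, which are not independent. F11R, near 0, changed sign to 0.0067 on total reads against eGFP, and with WT replicate 2 to 0.022 on total reads, 0.030 by upper quartile, 0.015 with at least 10 reads in every library and 0.0055 in the fit of all 6 libraries. CLDN1 changed sign to 0.27 with the replicate block and WT replicate 2. Leaving out 1 library gave log2 differences against eGFP from -0.43 to 1.13 for CLDN1, -0.54 to 0.94 for CLDN7, 0.95 to 2.32 for OCLN, -0.40 to 0.76 for TJP1 and -0.14 to 0.065 for F11R, and with WT replicate 2 from -0.42 to 0.16 for CLDN1, -0.93 to 0.014 for CLDN7, 0.44 to 1.50 for OCLN, -0.045 to 0.53 for TJP1 and -0.11 to 0.10 for F11R. The cause of these changes was not tested. The rule on fold and coefficient called 231 genes and 0 members at 4-fold and 2501 genes without the coefficient. Both GIRK1 libraries lay above the controls for 1 member on TMM-normalized CPM (CLDN4, at 14 reads in 2 of the libraries) and for 1 against eGFP alone (OCLN). At 2-fold, 5187 genes differed between the WT libraries. Depth limits CLDN3, CLDN4, CGN and TJP1 most.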
